A study of Mus musculus with 12 samples.

Results

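Sarcomere and Z-disc genes encode the contractile apparatus of the heart muscle cell, and 34 of them were followed in mouse hearts of 3 kinds. They were the genes of a fixed list of filament, titin and Z-disc components, each represented by the probe with the highest mean over the 12 arrays. Of the 34 genes, 30 had a probe, and Myh7b, Tnnt2, Flnc and Xirp2 were not analysed here. The probes of 29 members passed the filter on dim probes, among 13708 genes kept of 16593 in the whole series. The probes of 25 members lay above the background limit on all 12 arrays, Lmod2 lay above it on 1 array, and Myom2, Tnni1, Nexn and Nebl lay above it on none. The hearts came from C57Bl/6 mice, and RNA was hybridised to Illumina bead arrays, which report the brightness of gene-specific probes. The young group was 6 months old and untreated (4 arrays). The aged group was 30 to 32 months old and untreated (4 arrays). The spermidine group was 30 to 32 months old and had received 3 mM spermidine, a natural polyamine, in its drinking water from the age of 4 months (4 arrays). The labels name no transgene, and they give neither sex, nor the part of the heart taken, nor slide, nor date of scanning. Separate animals are implied by the sample titles alone, and a p-value here therefore measures only the spread between the samples, which may be technical.

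The sarcomere is the repeating unit of striated muscle. Myosin thick filaments, held together at the M-band, pull on actin thin filaments, whose access is gated by troponin and tropomyosin. Titin spans from the M-band to the Z-disc, where alpha-actinin crosslinks the thin filaments and PDZ-LIM proteins, telethonin and the ankyrin-repeat protein of Ankrd1 are anchored. In the mouse heart several of these proteins exist as isoforms whose balance is known to change with development and with load: Myh6 against Myh7, Actc1 against Acta1, Tnni3 against Tnni1.

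Within a group, arrays correlated at r = 0.980 to 0.995 (young), 0.969 to 0.987 (aged) and 0.984 to 0.988 (spermidine) over the 10311 probes above the background limit on all arrays. The 8 ventricular and general cardiomyocyte markers outside the list were all detected, and their summed intensity ranged from 72595 to 77709 (young), from 72433 to 80618 (aged) and from 69730 to 77241 (spermidine). The 10 atrial markers summed to 14036 on aged replicate 1, the lowest of an aged range up to 63055, against 53321 to 60585 in the young and 52112 to 59554 with spermidine. Airway markers summed to 11302 on young replicate 4 and 3901 on spermidine replicate 3, the highest of their groups, and the lowest sum in the young group was 7. In bulk tissue, fewer cells of a type and less RNA per cell cannot be told apart.

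Of the tested members, Myl1 alone passed the test in any comparison, and most others differed little between the groups. Between aged and young hearts, 17 of the 25 members above background on all arrays differed by at most 0.25 on the log2 scale, as did 17 between spermidine-treated and untreated aged hearts and 22 between spermidine-treated aged and young hearts. The median size of their difference was 0.13, 0.12 and 0.07 in these comparisons, against 0.16, 0.13 and 0.10 over all 10311 such probes. Several members are among the brightest probes, whose small differences are partly set by quantile normalization. The members are therefore not read as steadier than other genes. Fits were made with limma over all kept probes, and a gene was called at a Benjamini-Hochberg adjusted p under 0.05. In aged against young hearts 1 of the 29 tested members was called, higher with age, while 0.797% of all 20573 probes were called. In spermidine-treated against untreated aged hearts limma called 0 members, against 0.00486% of all probes. There 6 members (20.7%) and 9.45% of probes had an unadjusted p under 0.05. Of these members 3 were higher and 3 lower, and Tnni1, among the lower, was below background on all arrays. In spermidine-treated aged against young hearts 1 member was called, higher, against 0.160% of all probes. An unadjusted p under 0.05 was found for 4 members (13.8%) in aged against young hearts, where all probes gave 14.3%, and for 1 member (3.45%) in spermidine-treated aged against young hearts, where all probes gave 7.49%. The aged and young arrays of 2 members, Myl1 and Pdlim5, did not overlap, against 8.07% of all probes. No member's arrays were apart between the 2 aged groups (3.27% of all probes), and Myl1 alone was apart between spermidine-treated aged and young hearts (5.51%). The comparisons share arrays, aged ones or young ones or those with spermidine, so their values are given side by side.

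**Figure D1:**
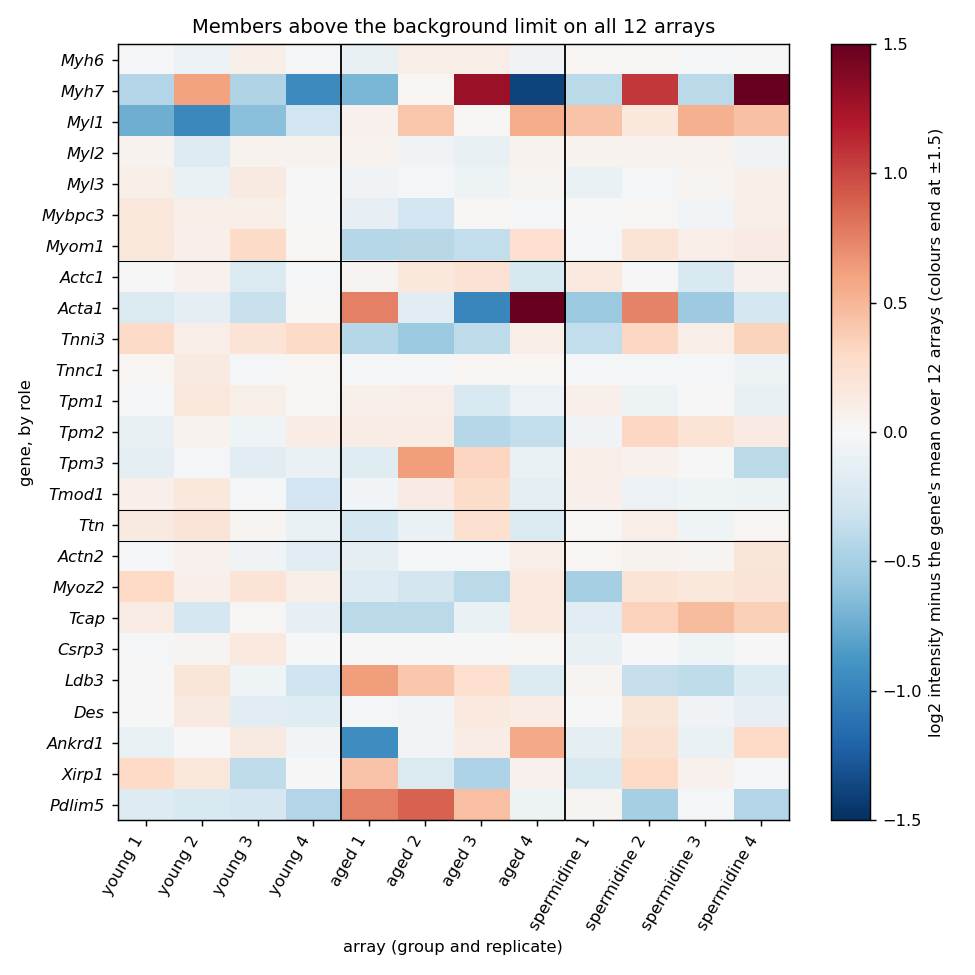
Each row is 1 of the 25 members above the background limit on all 12 arrays, ordered by role, and each column is an array; colour gives log2 intensity minus the gene's mean over the 12 arrays, with the colours ending at 1.5 in either direction. Myl1 is below its mean on all 4 young arrays, Pdlim5 is highest on aged replicates 1 to 3, and Myh7 and Acta1 show the strongest colours within groups.

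The members' median difference lay near 0 in every comparison. It was -0.04 between aged and young hearts (13 members higher, 16 lower), 0.04 between spermidine-treated and untreated aged hearts (17 higher, 12 lower) and 0.01 between spermidine-treated aged and young hearts (16 higher, 13 lower). Over all probes the medians were -0.01, 0.00 and -0.01. Scaling each array by its 75th percentile in place of quantile normalization turned the first of these medians to 0.09.

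Myl1 encodes an essential light chain of myosin that is best known from fast skeletal muscle. The signal of its brighter probe was higher in both aged groups than in the young. Probe ILMN_2878542 gave 11.88, 11.65, 11.98 and 12.33 log2 intensity on young replicates 1 to 4. On the aged arrays it gave 12.68, 13.03, 12.63 and 13.17. With spermidine the values were 13.04, 12.77, 13.14 and 13.05. All 8 arrays of aged hearts lay above all 4 young arrays, and the 2 aged groups overlapped. Before normalization the same probe ranged from 3213 to 5096 intensity units on the young arrays, from 5942 to 9428 on the aged and from 6583 to 9441 with spermidine. The aged mean of 12.88 ± 0.26 (SD, n = 4) exceeded the young mean of 11.96 ± 0.28 (SD, n = 4) by 0.92 (SE 0.17, 95% interval 0.56 to 1.28, limma adjusted p = 0.026), a 1.89-fold difference. The spermidine mean of 13.00 ± 0.16 (SD, n = 4) exceeded the young mean by 1.04 (SE 0.17, 95% interval 0.68 to 1.40, limma adjusted p = 0.0215), or 2.06-fold. Between the 2 aged groups the difference was 0.12 (95% interval -0.24 to 0.48, adjusted p = 0.848).

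The promoter of Myl1 is shown because this gene was the one member called in 2 comparisons. The sequence is from RefSeq (GRCm38.p6, chr1:66945057-66945306, minus strand) and covers the 250 bases before the listed start.
Myl1: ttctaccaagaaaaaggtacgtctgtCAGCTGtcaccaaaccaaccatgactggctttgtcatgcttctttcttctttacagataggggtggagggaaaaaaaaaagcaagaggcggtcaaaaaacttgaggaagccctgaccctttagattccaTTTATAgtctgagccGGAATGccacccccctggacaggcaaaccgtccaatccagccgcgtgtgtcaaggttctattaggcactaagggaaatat
Capitals mark matches, on either strand, to 3 motifs. An E-box (CANNTG, bound by basic helix-loop-helix factors) lay 224 bases before the start and an MCAT element (CATTCC, bound by TEAD factors) 80 bases before it. The letters TATAAA, those of a TATA box and not particular to muscle, matched 95 bases before the start on the opposite strand. Among 27018 promoters of the same length, 66.1% held an E-box, 13.0% a TATAAA match and 12.6% an MCAT element. Of 30 member promoters in the table, 26 (86.7%) held an E-box, 2 (6.67%) a TATAAA match, those of Myl1 and Acta1, and 11 (36.7%) an MCAT element. These matches are a description of letters in a window.

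The call of Myl1 rested on a narrow margin. Its direction held when each array was left out in turn. Differences ran from 0.82 to 1.04 in aged against young hearts and from 0.94 to 1.16 in spermidine-treated aged against young hearts. The limma adjusted p stayed under 0.05 in 8 of the 12 fits of the first comparison and in 6 of 12 of the second. Each count includes 4 fits without an array of the group not compared. These left the difference at 0.92 or 1.04 and kept the call. Every lost call followed from leaving out an array of the groups compared. Leaving out young replicate 1, 2 or 3 gave adjusted p of 0.0885, 0.0804 and 0.0808 in the first comparison, and leaving out aged replicate 2 gave 0.0674. In the second, the calls were lost without young replicate 1, 2 or 3 (adjusted p = 0.0896, 0.077 and 0.0843) and without spermidine replicate 1, 3 or 4 (0.0545, 0.1 and 0.1). With a pseudocount of 4 the adjusted p was 0.0663 and 0.0778, and with only aged and young arrays fitted it was 0.0623. Without the 2 arrays with airway transcripts the call against young was lost for spermidine (adjusted p = 0.0554). A second Myl1 probe, annotated to the same transcript, lay above background on 1 array. Its mean was 3.167 intensity units, against 6600 for the probe used, so the probes differed on whether Myl1 was detected. The second probe was higher by 0.57 with age (adjusted p = 0.119) and by 0.83 in spermidine-treated aged against young hearts (adjusted p = 0.070). These are values near background.

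Markers of other muscle were set beside Myl1. The 10 other fast skeletal genes measured, 3 of them below background on all arrays, among them the fast myosin heavy chain genes Myh1 and Myh4, summed to 206 to 229 intensity units on the young arrays, 196 to 366 on the aged and 235 to 261 with spermidine. Atrial RNA was low on aged replicate 1, where Sln stood at 9.75 against 12.99 to 13.36 on the other aged arrays, while Myl1 there was 12.68, within the aged range. Among the fast skeletal genes, Tnni2, a troponin I gene, was above background on all 12 arrays. Tnni2 stood at 6.26, 6.10, 5.98 and 6.31 log2 intensity on the young arrays, at 7.01, 6.46, 6.54 and 7.16 on the aged and at 6.61, 6.37, 6.95 and 7.09 with spermidine. As with Myl1, all 8 arrays of aged hearts lay above all young arrays. Tnni2 was not called, with differences of 0.63, -0.03 and 0.60 (limma adjusted p = 0.146, 0.967 and 0.398) in aged against young, spermidine-treated against untreated aged and spermidine-treated aged against young hearts. Genes of this list did not all move alike. Of its 9 tested genes, Myl1 and Tnni2 among them, 6 were higher and 3 lower in aged than in young hearts. In spermidine-treated aged against young hearts 4 were higher and 5 lower. Mylpf, above background on 10 arrays, differed by -0.33 and -0.29 in these comparisons (limma adjusted p = 0.288 and 0.672). The part of skeletal or atrial tissue in the Myl1 result was not tested.

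The other thick-filament and M-band genes gave no call. Myh6 encodes alpha myosin heavy chain, the main motor of the adult mouse heart. Myh6 stood at 14.13, 14.07, 14.24 and 14.13 log2 intensity on the young arrays, at 14.04, 14.26, 14.26 and 14.10 on the aged and at 14.18, 14.17, 14.14 and 14.15 with spermidine. The 3 groups overlapped, and the differences were 0.03, -0.01 and 0.02 (adjusted p = 0.939, 0.988 and 0.997; aged against young, spermidine-treated against untreated aged, spermidine-treated aged against young, an order kept below). A dimmer Myh6 probe gave -0.41 between aged and young hearts and 0.41 between the 2 aged groups, so that the 2 probes disagreed in direction.

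Myom1 encodes myomesin, which crosslinks the thick filaments at the M-band. Myom1 stood at 13.08, 12.99, 13.20 and 12.93 on the young arrays, at 12.49, 12.50, 12.54 and 13.16 on the aged and at 12.90, 13.12, 13.01 and 13.04 with spermidine. Aged replicates 1 to 3 lay below every other array, and aged replicate 4 lay among the young. The aged-young difference was -0.38 (95% interval -0.70 to -0.06, adjusted p = 0.258) and the difference between the 2 aged groups was 0.35 (0.03 to 0.67, adjusted p = 0.504), and neither was called. A second Myom1 probe gave -0.41 and 0.37. Without aged replicate 4 the aged-young difference was -0.54 (adjusted p = 0.0258), and Myom1 was called.

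The regulatory light chain Myl2 and troponin C gene Tnnc1 were among the 5 brightest probes on all 12 arrays, and Myl2 was the brightest on 8. Quantile normalization gives the brightest probes of every array nearly the same value, so their small spread is partly set by it. Scaled by the 75th percentile, Myl2 differed by 0.18, 0.01 and 0.19 and Tnnc1 by 0.20, -0.10 and 0.10, and neither was called. Myl3, the ventricular essential light chain, differed by -0.06, 0.02 and -0.03, and Mybpc3, the myosin-binding protein C of the heart, by -0.19, 0.12 and -0.07, and neither was called. The Myl3 probe was among the 5 brightest on 6 arrays. Scaled by the 75th percentile, Myl3 turned sign in all comparisons, to 0.12, -0.03 and 0.09, and Mybpc3 gave -0.16, 0.15 and -0.01. Myom2, a second myomesin, lay below background on all arrays.

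Thin-filament genes were likewise not called. Cardiac alpha-actin, encoded by Actc1, stood at 14.06, 14.13, 13.85 and 14.04 on the young arrays, at 14.10, 14.22, 14.28 and 13.82 on the aged and at 14.21, 14.07, 13.83 and 14.13 with spermidine. The groups overlapped, with differences of 0.08, -0.04 and 0.04 (adjusted p = 0.817, 0.939 and 0.995). A dimmer Actc1 probe, above background on all 12 arrays, had the opposite signs, with -0.09, 0.05 and -0.05 (limma adjusted p = 0.891, 0.964 and 0.996). Skeletal alpha-actin, encoded by Acta1, is known to return under load. Acta1 stood at 10.32, 10.39, 10.20 and 10.55 on the young arrays, at 11.29, 10.38, 9.55 and 12.21 on the aged and at 9.98, 11.28, 9.99 and 10.27 with spermidine. The aged arrays spanned from below to above all young arrays, and no difference was called (0.49, -0.48 and 0.01, adjusted p = 0.658, 0.761 and 0.999). The intervals ran from -0.47 to 1.46, from -1.44 to 0.49 and from -0.95 to 0.98. Single aged arrays set the first 2 values: without aged replicate 4 they were 0.04 and -0.03, and without aged replicate 3 they were 0.93 and -0.92.

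The promoters of Acta1, Actc1 and Myh7 are shown because these genes carry the isoform comparisons. They are from RefSeq (GRCm38.p6), all on the minus strand, at chr8:123894776-123895025, chr2:114052876-114053125 and chr14:54994627-54994876, the latter the first of 2 listed for Myh7.
Acta1: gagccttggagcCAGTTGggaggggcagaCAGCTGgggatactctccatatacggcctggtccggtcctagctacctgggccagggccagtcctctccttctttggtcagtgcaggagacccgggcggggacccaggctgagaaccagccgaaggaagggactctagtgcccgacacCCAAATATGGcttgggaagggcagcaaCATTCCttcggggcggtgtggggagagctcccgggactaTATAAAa
Actc1: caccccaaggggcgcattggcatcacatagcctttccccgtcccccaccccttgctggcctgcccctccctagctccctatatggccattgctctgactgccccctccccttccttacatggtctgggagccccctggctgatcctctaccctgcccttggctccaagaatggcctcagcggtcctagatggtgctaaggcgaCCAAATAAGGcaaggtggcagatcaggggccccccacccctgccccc
Myh7: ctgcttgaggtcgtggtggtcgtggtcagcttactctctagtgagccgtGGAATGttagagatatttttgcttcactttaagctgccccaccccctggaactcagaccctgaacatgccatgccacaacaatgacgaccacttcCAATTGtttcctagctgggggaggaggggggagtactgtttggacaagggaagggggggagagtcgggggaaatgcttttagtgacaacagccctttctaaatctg
Capitals mark the same motifs, with the CArG box, bound by serum response factor, added. Acta1 held a CArG box 73 bases before its start, an MCAT element at 46, a TATAAA match at 7 and E-boxes at 238 and 221. Actc1 held a CArG box at 47, and Myh7 held an MCAT element at 201 and an E-box at 106. A CArG box was in 1.40% of all 27018 promoters and in 5 of the 30 member promoters (16.7%), those of Myl3, Myom1, Actc1, Acta1 and Ldb3. An MEF2 site (TAAAAATA) was in 2.48% of all and in 3 member promoters (10%).

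Tnni3 encodes cardiac troponin I, the inhibitory subunit of the troponin complex. Tnni3 stood at 11.36, 11.17, 11.28 and 11.36 on the young arrays, at 10.64, 10.52, 10.69 and 11.17 on the aged and at 10.70, 11.38, 11.17 and 11.41 with spermidine. Aged replicates 1 to 3 lay below all young arrays and aged replicate 4 met them, while spermidine replicate 1 stood beside the low aged arrays. The differences of -0.54 (95% interval -0.91 to -0.16, adjusted p = 0.174), 0.41 (0.04 to 0.78, adjusted p = 0.502) and -0.13 (adjusted p = 0.971) were not called. Without aged replicate 4, Tnni3 was called lower in aged than in young hearts (-0.68, adjusted p = 0.0476).

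Tnni1, the slow skeletal and fetal troponin I, lay below background on all arrays, and no fold is given. Its probe gave 4.53, 4.39, 4.17 and 4.39 on the young arrays, 4.48, 4.17, 4.71 and 4.45 on the aged and 4.45, 3.89, 4.00 and 3.78 with spermidine. These are values of a probe not above background. The planned ratio of Tnni1 to Tnni3 is not given for this reason. Tropomyosin genes Tpm1, Tpm2 and Tpm3 differed by -0.23 to 0.29 over the 3 comparisons, and the thin-filament cap gene Tmod1 by -0.09 to 0.07. A dimmer Tpm2 probe, above background on all 12 arrays, disagreed with the one used: it gave 0.74 between aged and young hearts and 0.73 between spermidine-treated aged and young hearts (adjusted p = 0.331 and 0.651), against -0.14 and 0.15. The leiomodin gene Lmod2 was above background on 1 array.

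Titin, whose gene Ttn encodes the molecular spring of the sarcomere, stood at 13.54, 13.60, 13.45 and 13.30 on the young arrays, at 13.14, 13.30, 13.65 and 13.19 on the aged and at 13.42, 13.50, 13.34 and 13.43 with spermidine. The groups overlapped and the differences of -0.15, 0.10 and -0.05 were not called (adjusted p = 0.624, 0.828 and 0.990).

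Among the Z-disc members of the list, Pdlim5 had the largest difference between aged and young hearts. It encodes a PDZ-LIM protein (ENH) that binds alpha-actinin. Pdlim5 stood at 11.70, 11.66, 11.64 and 11.46 on the young arrays, at 12.65, 12.78, 12.35 and 11.82 on the aged and at 11.94, 11.40, 11.88 and 11.45 with spermidine. All 4 aged arrays lay above all 4 young arrays, and aged replicate 4, the lowest of them, lay below spermidine replicates 1 and 3. The aged mean was 12.40 ± 0.43 (SD, n = 4), against 11.61 ± 0.11 (SD, n = 4) in the young and 11.67 ± 0.28 (SD, n = 4) with spermidine. The difference of 0.79 with age (95% interval 0.37 to 1.21) missed the threshold (limma adjusted p = 0.0869), as did that of -0.73 between the 2 aged groups (-1.16 to -0.31, adjusted p = 0.431). Spermidine-treated aged and young hearts differed by 0.05 (-0.37 to 0.48, adjusted p = 0.995).

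Pdlim5 had 4 probes, and they did not move alike. The second, annotated to the same transcript as the first, gave 0.86, -0.75 and 0.11 (adjusted p = 0.072, 0.431 and 0.982). Another, annotated to another transcript, gave 0.50, -0.24 and 0.26. The fourth gave 0.04, 0.05 and 0.09. With array weights the aged-young difference of Pdlim5 was called (adjusted p = 0.036). Without young replicate 4, spermidine replicate 3 and aged replicate 1 it was 0.65 (adjusted p = 0.296). Without aged replicate 4 it was 0.98 (adjusted p = 0.0125), and that between the 2 aged groups was -0.93 (adjusted p = 0.0472). In that setting 4 members were called in aged against young hearts, Myl1, Myom1, Tnni3 and Pdlim5, and 1 between the 2 aged groups, Pdlim5. Of all 20264 probes tested there, 591 and 56 were called, against 164 and 1 of 20573 with all arrays.

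**Figure D2:**
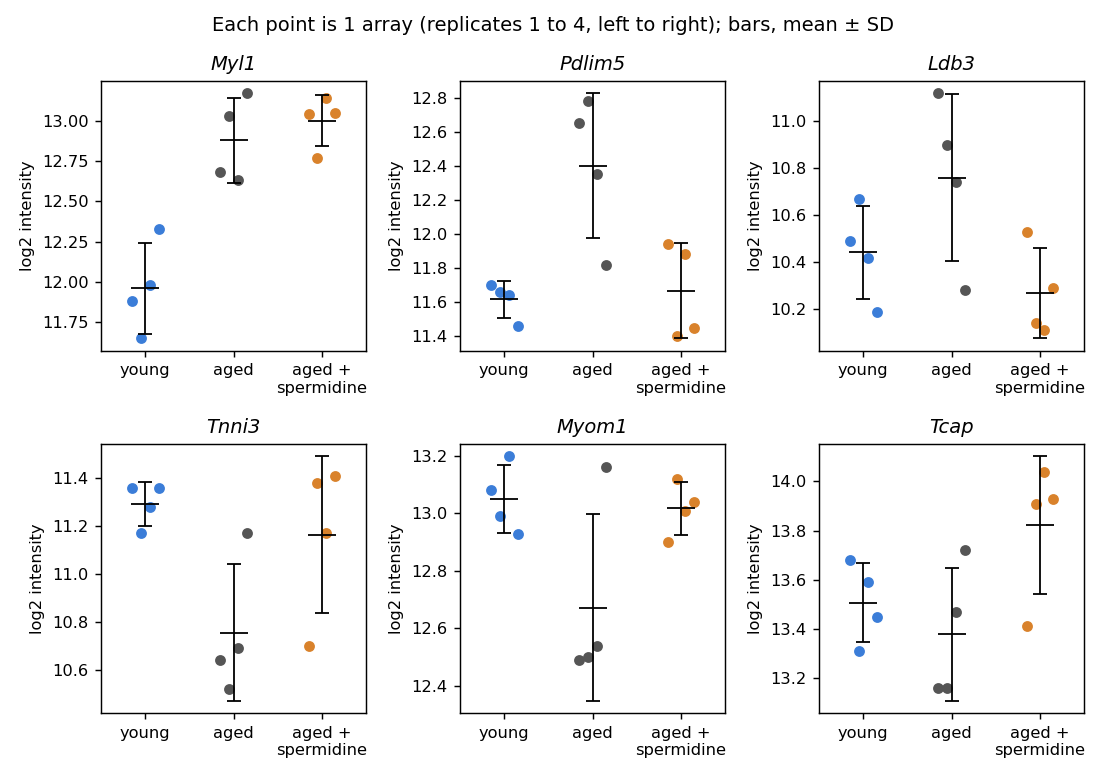
Points are the log2 intensities of single arrays (replicates 1 to 4 from left to right) and bars are the mean ± SD of each group of 4, for Myl1, Pdlim5, Ldb3, Tnni3, Myom1 and Tcap, each on its own axis. In Pdlim5, Tnni3 and Myom1 aged replicate 4 is the aged array closest to the young ones, and in Myl1 all arrays of both aged groups are above the young.

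Ldb3, another PDZ-LIM gene of the Z-disc (ZASP, also called Cypher), stood at 10.49, 10.67, 10.42 and 10.19 on the young arrays, at 11.12, 10.90, 10.74 and 10.28 on the aged and at 10.53, 10.14, 10.11 and 10.29 with spermidine. Aged replicates 1 to 3 were the 3 highest arrays, and aged replicate 4 lay among the others. Its differences of 0.32, -0.49 and -0.17 were not called (adjusted p = 0.429, 0.457 and 0.941). Telethonin, encoded by Tcap, ties titin to the Z-disc. Tcap stood at 13.68, 13.31, 13.59 and 13.45 on the young arrays, at 13.16, 13.16, 13.47 and 13.72 on the aged and at 13.41, 13.91, 14.04 and 13.93 with spermidine. Spermidine replicates 2 to 4 lay above all others, and spermidine replicate 1 lay among them. The differences were -0.13, 0.44 (95% interval 0.08 to 0.81) and 0.32 (adjusted p = 0.774, 0.469 and 0.754).

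Myoz2 encodes calsarcin-1, which links alpha-actinin to calcineurin. Myoz2 stood at 12.65, 12.42, 12.55 and 12.44 on the young arrays, at 12.16, 12.07, 11.95 and 12.50 on the aged and at 11.85, 12.55, 12.51 and 12.54 with spermidine. Spermidine replicate 1 was the lowest of all arrays, and aged replicate 4 lay among the young ones. No difference was called (-0.34, 0.19 and -0.15, adjusted p = 0.376, 0.741 and 0.956). The alpha-actinin gene Actn2 stood at 13.83, 13.91, 13.79 and 13.67 on the young arrays, at 13.70, 13.82, 13.81 and 13.93 on the aged and at 13.87, 13.90, 13.88 and 14.02 with spermidine. Its groups overlapped, with differences of 0.02, 0.10 and 0.12. Csrp3, the muscle LIM protein gene, Des, the desmin gene, and Xirp1, the Xin gene, differed by -0.09 to 0.10 in all comparisons, and Nexn and Nebl lay below background. The dimmest of 3 Csrp3 probes, above background on all 12 arrays, gave -0.26, 0.17 and -0.09 (limma adjusted p = 0.442, 0.738 and 0.982).

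**Figure D3:**
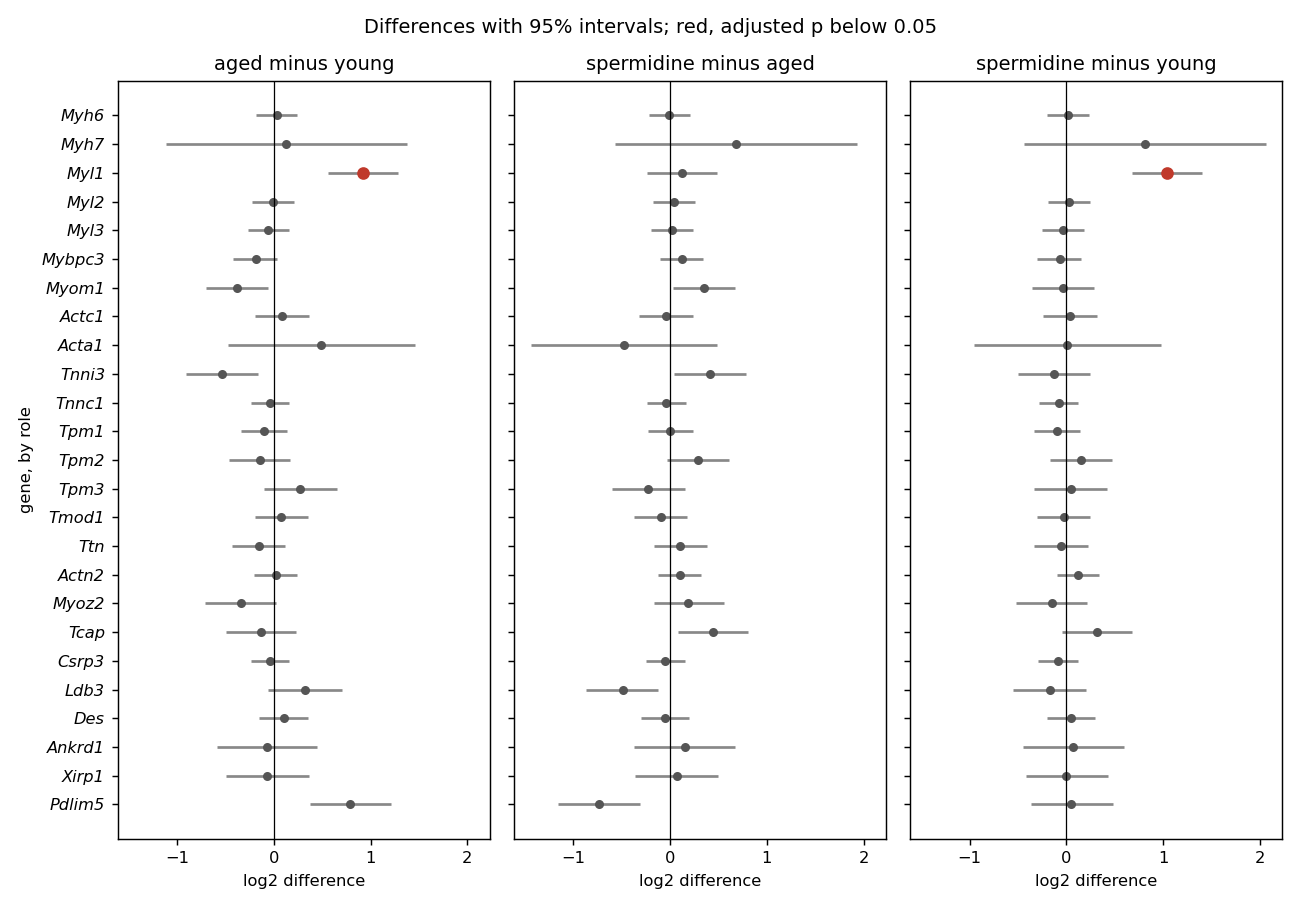
Points are limma log2 differences with 95% intervals for the 25 members above the background limit on all arrays, in each of the 3 comparisons. Red points have an adjusted p under 0.05: Myl1 lies clear of 0 against the young in both aged groups, and the interval of Pdlim5 lies above 0 in aged against young hearts and below 0 between the 2 aged groups.

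The members that varied most between arrays of one group were Myh7, Acta1 and Ankrd1, known as load-responsive genes. Within-group SD was 0.99 for Myh7, 0.76 for Acta1 and 0.39 for Ankrd1, at percentiles 99.7, 99.3 and 93.8 of the 10311 probes. It was lowest for Tnnc1 and Csrp3, both 0.05, and the median was 0.20 over 25 members and 0.19 over all 10311 probes. For Tnnc1, among the 5 brightest probes, quantile normalization partly sets this value. The dimmest Csrp3 probe had SDs of 0.02 (young), 0.20 (aged) and 0.28 (spermidine). The Csrp3 probe used had 0.07, 0.01 and 0.06.

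Myh7 encodes the slow, beta myosin heavy chain of the fetal and the loaded mouse heart. Myh7 stood at 8.25, 9.29, 8.24 and 7.73 on the young arrays, at 8.01, 8.72, 9.99 and 7.30 on the aged and at 8.28, 9.75, 8.28 and 10.44 with spermidine. Each group held a high array, young replicate 2, aged replicate 3 and spermidine replicate 4, and all groups overlapped. The differences were 0.13 (95% interval -1.12 to 1.38), 0.68 (-0.57 to 1.93) and 0.81 (-0.44 to 2.06), and none was called. The Myh7 to Myh6 ratio differed by 0.10, 0.69 and 0.79 (exact permutation p = 0.886, 0.400 and 0.200, two-sided; 0.971, 0.856 and 0.600 after Benjamini-Hochberg adjustment over the 9 planned ratio tests).

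Ankrd1 encodes the stretch-responsive ankyrin-repeat protein CARP. Ankrd1 stood at 13.38, 13.47, 13.61 and 13.44 on the young arrays, at 12.55, 13.44, 13.59 and 14.04 on the aged and at 13.34, 13.71, 13.38 and 13.77 with spermidine. The aged arrays held both the lowest and the highest value, and the differences of -0.07, 0.15 and 0.07 were not called. A dimmer Ankrd1 probe, above background on all 12 arrays, had the opposite signs, with 0.11, -0.16 and -0.05 (limma adjusted p = 0.884, 0.877 and 0.997). The natriuretic peptide gene Nppb, a load marker outside the list, was set against these genes over the 12 arrays as deviations from group means, in 6 pairs. Myh7 and Nppb gave r = -0.69 (permutation p = 0.0408, Benjamini-Hochberg adjusted 0.245) and Spearman rho = -0.62 (permutation p = 0.0783). Without the 2 arrays farthest in Myh7, aged replicate 3 and spermidine replicate 4, r was -0.32, so the relation rests on them. The other 5 pairs had r from -0.43 to 0.59 and none passed the adjustment.

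**Figure D4:**
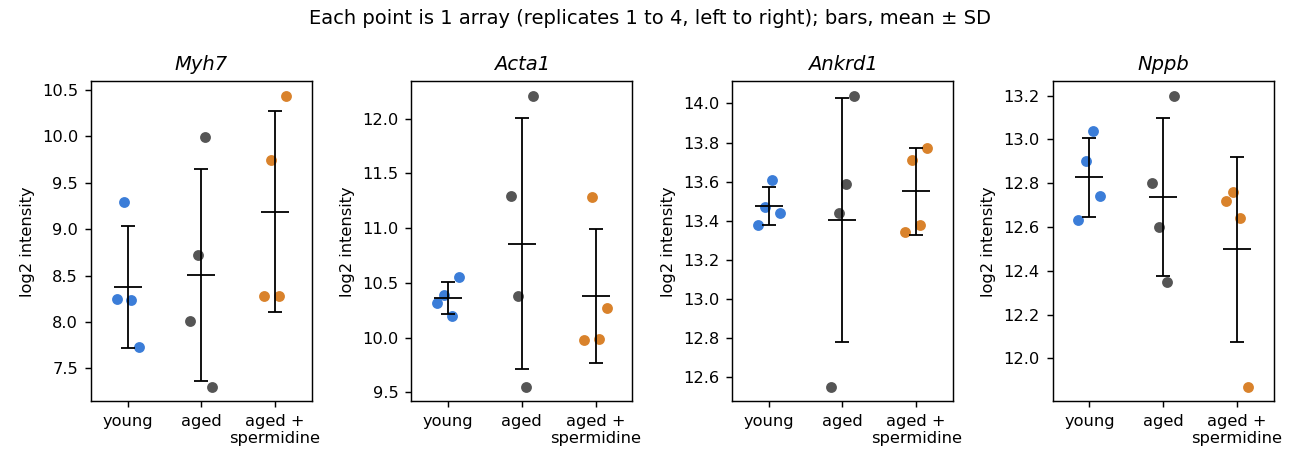
Points are the log2 intensities of Myh7, Acta1, Ankrd1 and Nppb on the 12 arrays, by group (replicates 1 to 4 from left to right), and bars are the mean ± SD of each group of 4. The highest 2 arrays of Myh7 are aged replicate 3 and spermidine replicate 4, and the highest array of Acta1 is aged replicate 4.

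Other genes of the sarcomere and its upkeep were read from 3 fixed lists. Of 39 further structural genes, 32 were tested, 1 was called higher in aged than in young hearts and none was called in the other comparisons. An unadjusted p under 0.05 was found for 10 of them (31.2%) in aged against young hearts, for 2 (6.25%) between the 2 aged groups and for 5 (15.6%) in spermidine-treated aged against young hearts, where all probes gave 14.3%, 9.45% and 7.49%. That gene, Myot, encodes myotilin, a Z-disc protein that binds alpha-actinin and filamin. Myot stood at 6.04, 6.54, 6.43 and 6.10 on the young arrays, at 8.66, 7.96, 7.76 and 7.23 on the aged and at 7.47, 7.15, 7.51 and 7.46 with spermidine. All 8 arrays of aged hearts lay above all young arrays. The aged mean exceeded the young mean by 1.62 (SE 0.24, limma adjusted p = 0.00702, 3.08-fold), and the differences between the 2 aged groups and between spermidine-treated aged and young hearts were -0.50 and 1.12 (adjusted p = 0.537 and 0.133). The call held with each array left out (1.37 to 1.85, adjusted p up to 0.0358), and averaging its kept probes gave 0.78 (adjusted p = 0.0695). The difference between spermidine-treated aged and young hearts was called with only these groups fitted (adjusted p = 0.0178), with array weights (0.0142), and without aged replicate 1 (0.023) or 4 (0.0404). Synpo2, another Z-disc gene, differed by 0.81 between aged and young hearts and by -0.56 between the 2 aged groups (adjusted p = 0.0739 and 0.457). Cfl2, a cofilin gene that acts on actin filaments, differed by -0.44 between the 2 aged groups (adjusted p = 0.507), and the LIM gene Fhl1 by 0.50 between spermidine-treated aged and young hearts (adjusted p = 0.292).

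Of 25 symbols listed for sarcomere assembly, folding and turnover, of which Trim63 and Murf1 name the same gene, 19 were tested and none was called. Hspb1, a small heat shock protein gene, differed by -0.56 and Hspa8, the constitutive Hsc70 gene, by 0.36 between aged and young hearts (limma adjusted p = 0.157 and 0.184), and Trim54, a muscle RING-finger gene, by 0.42 between the 2 aged groups and 0.64 between spermidine-treated aged and young hearts (adjusted p = 0.473 and 0.229). Hspa8 differed by -0.28 between the 2 aged groups (adjusted p = 0.504), and Capn3, the calpain-3 gene, by 0.64 between spermidine-treated aged and young hearts (adjusted p = 0.504) with its probe above background on 1 array. In this list 6 genes (31.6%), 3 (15.8%) and 4 (21.1%) had an unadjusted p under 0.05 in the 3 comparisons, against 14.3%, 9.45% and 7.49% of all probes. Of 18 muscle transcription factor genes, 15 were tested and none was called. Gata4 differed by -0.38 and Srf by -0.23 between aged and young hearts (adjusted p = 0.251 and 0.340), and Esrra by 0.23 and Hand2 by 0.36 between the 2 aged groups (adjusted p = 0.544 and 0.604). Between spermidine-treated aged and young hearts the smallest p were those of Mrtfa and Mrtfb, above background on 0 and 2 arrays. In aged against young hearts 2 of the 15 (13.3%) had an unadjusted p under 0.05, against 14.3% of all probes, and 0 in the other comparisons.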

How the data were processed

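The submitters deposited 2 tables of 25697 probes, both in linear intensity. The one used here is called non-normalized by its deposited name, and 24.1% of its values lay below 0, so a background had been subtracted. The method and software are not given in the sources used here. RNA was extracted with an RNeasy kit and Trizol and labelled with the TotalPrep kit, per the labels' protocols. A second deposited table, of normalized intensity, was an alternative. The plan named limma's background correction, which requires detection p-values or control probes, and the table used holds none. So intensities were quantile normalized, 16 was added, and log2 was taken. Changes of dim probes come out too small on this scale. Probes above the 25th percentile on at least 4 of 12 arrays were kept (20573, 80.1%). For each array, the negative values were mirrored about 0, and 3 SDs of the result served as background limit, at 13.2 to 15.8 intensity units, and 45.5% to 48.0% of probes lay above it. Mean intensity per array was 259 to 313, and the number of arrays limits the precision.

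The 3 groups were fitted together with limma 3.58.1 in R 4.3.3 (lmFit, eBayes), and p-values were adjusted over all kept probes. Ratios were tested by exact permutation and correlations by 100000 permutations. The fit was checked on simulated data. Members were matched by the symbols of the platform annotation. For the other lists these symbols were brought up to date with RefSeq, after which 23978 probes had 1 symbol and 1719 were unnamed. Promoters were matched by symbol, and 30 of the 34 members had one. Members and lists were chosen with earlier results of these data known. Values on every array are given for members past the threshold, for the 5 with the smallest p in each comparison and for a fixed panel of Myh6, Myh7, Actc1, Acta1, Tnni1, Tnni3, Ttn, Actn2, Ankrd1 and Xirp2, of which Xirp2 was not analysed here. Of each other list, the genes past the threshold are named, or, where none passed, the 2 with the smallest p in that comparison. Synpo2 in aged against young hearts, Tnni2 and Mylpf were named after their values were seen. Alternatives were the normalized table, 75th percentile scaling, other pseudocounts, no filter, the mean of a gene's probes, array weights, fits of only 2 groups, a replicate block and arrays left out. The alternatives for Myot, Myl7 and Myl4 were chosen after seeing the data.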

Additional observations from a re-analysis of the deposited data

Results flagged for a closer look

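In groups of 4 arrays, a member was listed here when 1 array lay far from the other 3 relative to the group's range. This was tested in 75 groups of the 25 members above background on all arrays. It listed 5, and chance lists about 1 in 20. Myom1 stood at 13.16 on aged replicate 4, against 12.49 to 12.54 on the other aged arrays. Myoz2 stood at 11.85 on spermidine replicate 1, against 12.51 to 12.55 on the others of its group. Myl2 stood at 14.46 on young replicate 2 and at 14.59 on spermidine replicate 4, where the other 3 arrays of each group shared the top value of 14.70 that quantile normalization sets. Tnnc1 stood at 14.49 on spermidine replicate 4.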

How the results depend on the processing

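Over 1390 alternative values of 68 results, 1287 kept their direction and side of the threshold. Of the others, 53 turned sign, 26 counts or medians moved, 15 lost a call and 9 gained one. Most results were not called to begin with, and leaving out an array of the group not compared hardly changes a difference. The total therefore does not measure how firm a call is. The number of members called in aged against young hearts was 0 with pseudocount 4 or only these groups fitted, 2 with array weights, and 0 to 4 with 1 array left out. Between the 2 aged groups it was 0 to 1 with 1 array left out. In spermidine-treated aged against young hearts it was 0 with pseudocount 4 or without the 2 arrays with airway transcripts, and 0 to 1 with 1 array left out. In aged against young hearts, pseudocount 4 called 70 of all 20573 probes, fitting only these groups 97, and array weights 372. Leaving out 1 array gave 41 to 591 calls there and 0 to 56 between the 2 aged groups. In spermidine-treated aged against young hearts, calls over all probes were 23 of 20573 with pseudocount 4 and 13 of 19825 without the airway arrays. They numbered 16 to 49 with 1 array left out.

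The median difference of members between aged and young hearts was 0.06 in the normalized table, 0.09 with 75th percentile scaling and -0.05 to 0.05 with 1 array left out. Between spermidine-treated aged and young hearts it was 0.05 with that scaling, -0.05 without the 2 airway arrays, -0.05 without these and aged replicate 1, and -0.04 to 0.02 with 1 array left out.

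Values near 0 turned sign. In aged against young hearts, averaging a gene's probes gave Myh6 -0.19 and Ankrd1 0.02, the normalized table gave Actn2 -0.01, leaving out the airway arrays gave Myh7 -0.09 and Actn2 -0.03, and leaving out all 3 arrays of unlike make-up gave Ankrd1 0.21. With 1 array left out, Myh6 ran from -0.01 to 0.07, Myh7 from -0.37 to 0.53, Actn2 from -0.03 to 0.05 and Ankrd1 from -0.29 to 0.21. Between the 2 aged groups, averaging probes gave Myh6 0.20 and Ankrd1 -0.01, leaving out the airway arrays gave Actc1 0.03, and leaving out the 3 arrays gave Actc1 0.02 and Ankrd1 -0.08. With 1 array left out, Myh6 ran from -0.05 to 0.03, Actc1 from -0.14 to 0.03 and Ankrd1 from -0.14 to 0.36. In spermidine-treated aged against young hearts, 75th percentile scaling gave Ttn 0.02, and leaving out either set of arrays gave Pdlim5 -0.07. With 1 array left out, Myom1 ran from -0.07 to 0.02, Actc1 from -0.02 to 0.12, Acta1 from -0.28 to 0.15, Tnni3 from -0.21 to 0.03, Myoz2 from -0.21 to 0.02 and Pdlim5 from -0.04 to 0.15.

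The Myh7 to Myh6 ratio in aged against young hearts was -0.04 with 75th percentile scaling, -0.11 without the airway arrays and -0.36 to 0.48 with 1 array left out. The Acta1 to Actc1 ratio ran from -0.14 to 0.90 (aged against young) and from -0.93 to 0.11 (between the 2 aged groups) with 1 array left out. In spermidine-treated aged against young hearts it was 0.02 with probes averaged, 0.08 without the airway arrays and without all 3, and -0.32 to 0.16 with 1 array left out. The correlation of Ankrd1 and Nppb was -0.06 with 75th percentile scaling, and that of Myh7 and Ankrd1 was -0.11 without the 3 arrays. Myl4 in aged against young hearts was 0.19 without aged replicate 1 and 0.25 without the 3 arrays. The causes were not tested.

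Deviations of same-numbered arrays correlated at r = -0.27 to 0.21, with 3 of 12 over 0.1. Arrays of unlike number were not correlated for reference, so these values cannot decide whether the replicate numbers pair the samples. With the replicate number as a block, Myl1 differed by 0.92 and 1.04 from the young (limma adjusted p = 0.0362 and 0.0371). The numbers of members called were then 1, 0 and 1, against 96, 0 and 30 of all 20573 probes. The members' medians were -0.04, 0.04 and 0.01. Myom2, Tnni1, Nexn and Nebl lay below the background limit on all arrays, so their signal limits any statement on them.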

Other observations

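Atrial sarcomere genes outside the list were lowest on aged replicate 1. Myl7, the atrial regulatory light chain gene, stood at 8.77 log2 intensity on aged replicate 1, against 11.88 to 11.93 on the other aged arrays. The young arrays of Myl7 stood at 12.39 to 12.77, above all 4 aged arrays. Aged and young arrays did not overlap for 8.07% of all probes. Myl4, the atrial essential light chain gene, stood at 11.30 on aged replicate 1, against 13.92 to 14.30 on the other aged arrays. Nppa, the atrial natriuretic peptide gene, stood at 12.99 there, against 14.42 to 14.46. In aged against young hearts Myl7 differed by -1.52 and Myl4 by -0.52 (limma adjusted p = 0.220 and 0.670). Without aged replicate 1 the differences were -0.73 and 0.19 (adjusted p = 0.0965 and 0.592), so that Myl4 turned sign, and neither gene was called in either setting.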
